A study of Mus musculus with 4 samples.

Results

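The microRNAs (miRNAs) described here are miR-140-5p and miR-140-3p (mmu-miR-140-5p and mmu-miR-140-3p in the files), the 5' and 3' arms of the hairpin encoded by Mir140. They were found by name on the arrays, as 2 of 1900 mouse miRNA probes with 1 spot each, and were chosen by their spot medians on these same arrays, which earlier results had shown to be low with Wnt3a. Their levels and differences on the 4 arrays are therefore a description, with no test. The cells were MC3T3-E1, a clonal osteoblastic line from mouse calvaria, kept in proliferation medium. All 4 cultures carried a recombinant adenovirus vector, which delivered GFP as the control, Wnt4, Wnt3a or Wnt5a. The labels give neither virus dose nor time after infection, and there was no culture without virus. By its title, the series looks for miRNAs in the crosstalk between Wnt and TGF-beta signalling. There was 1 array per group, so every difference below lies between 2 arrays and has no replicate check.

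A miRNA hairpin is cut by Drosha and Dicer into a duplex, and either strand can be loaded into Argonaute, where the seed at its 5' end pairs with target transcripts. Mir140 lies in an intron of Wwp2, which encodes a HECT-type E3 ubiquitin ligase. miR-140 is best known from cartilage, where it depends on the chondrocyte factor Sox9 and where mice that lack it have short bones and early cartilage loss. Adamts5, which encodes an aggrecan-cleaving protease, and Smad3, which encodes a transducer of TGF-beta signals, are reported targets in mouse cells. Of the 3 secreted ligands, Wnt3a stabilizes beta-catenin in most cells, Wnt5a acts mainly through routes that do not need beta-catenin, and Wnt4 can act through either.

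The mature sequence of miR-140-3p is shown with miR-497b, the mouse miRNA that shares its seed, and with miR-142b and miR-763, the array miRNAs most like it in sequence, since probes for alike sequences could read the same RNA. Capitals mark the seed, bases 2 to 8 counted from the 5' end. The sequences are from RefSeq, build GRCm38.p6, which held 1 of the 2 arms.
miR-140-3p: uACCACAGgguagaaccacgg
miR-497b: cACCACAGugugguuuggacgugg
miR-142b: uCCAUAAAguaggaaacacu
miR-763: cCAGCUGGgaagaaccaguggc
miR-140-3p lies at chr8:107551288-107551308 on the + strand and miR-497b at chr11:70234763-70234786 on the - strand. miR-142b lies at chr11:87756906-87756925 and miR-763 at chr10:120448052-120448073, both on the - strand. Among 1611 other array miRNAs with a matched sequence, miR-142b and miR-763 were the closest, and each still differed from miR-140-3p by 8 edits. None of the 3 other miRNAs was detected on any array. Their spot medians on the GFP array were 81.9 units for miR-497b, 84.6 units for miR-142b and 92.8 units for miR-763, where the detection limit was 104 units. In the RefSeq gene table, Wwp2 was the only gene whose span contained Mir140. The next miRNA genes on the chromosome were Mir7075 and Mir3108, and only miR-7075-5p of their products was detected on both the GFP and the Wnt3a array.

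miR-140-3p gave a bright spot on 3 arrays and a much dimmer one on the fourth. Its raw spot median was 7049 units with GFP, 5582 units with Wnt4, 1135 units with Wnt3a and 5727 units with Wnt5a. The Wnt3a value was the lowest and was well separated from the others, which lay close together. miR-140-5p had the same order of arrays. Its raw spot median was 2379 units with GFP, 2096 units with Wnt4, 535 units with Wnt3a and 2142 units with Wnt5a. A miRNA counted as detected where its spot median passed the mean plus 2 SD of the array's blank spots, and both arms were detected on all 4 arrays. Even on the Wnt3a array the signal was 13.9 times the limit for miR-140-3p and 6.55 times for miR-140-5p. Levels of different probes cannot be set against each other on such arrays, so the brighter 3p spot does not rank the arms.

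**Figure D1:**
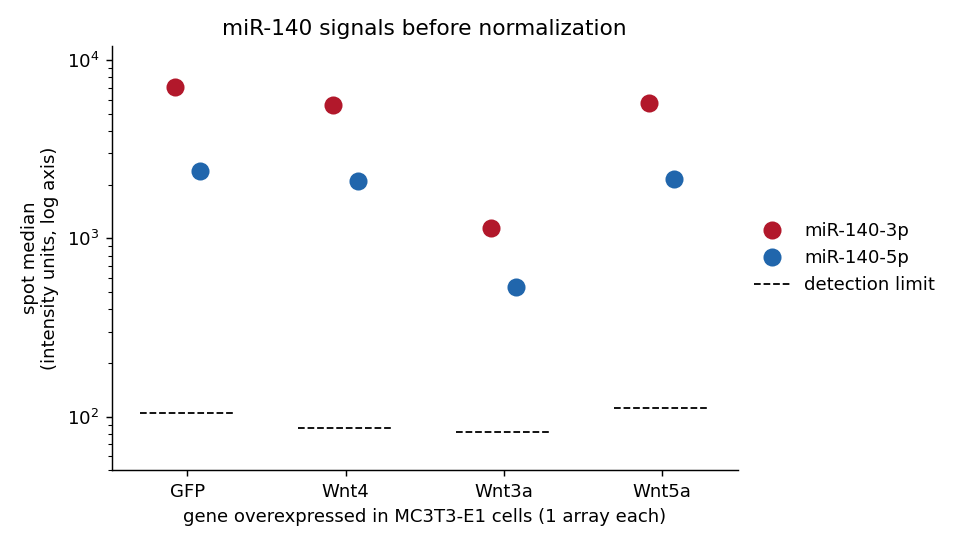
Raw spot medians in intensity units (log axis) of miR-140-3p and miR-140-5p on the 4 arrays, with each array's detection limit as a dashed line. Both arms are lowest on the Wnt3a array, at 1135 and 535 units, and remain above the limit of 81.7 units there.

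After background correction with normexp and quantile normalization, miR-140-3p on the Wnt3a array stood at 15.0% of its GFP level. The log2 difference was -2.74, with a standard error (SE) of 0.13 that combines only the noise between spots within each array. miR-140-5p stood at 22.0%, with a log2 difference of -2.18 (SE 0.13). Before normalization the raw signals were 6.21-fold and 4.45-fold lower. Of 612 miRNAs detected on both arrays, 6 or 0.980% were at least 2-fold lower with Wnt3a, and these 6 include both arms of miR-140, which held the lowest and second lowest differences. This contrast is the one that led to their choice. In bulk RNA, fewer cells that make miR-140 and less miR-140 per cell cannot be told apart.

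On the Wnt4 array both arms were within 2-fold of their GFP level with the processing used here. The log2 difference of miR-140-3p was -0.26 (SE 0.10), and that of miR-140-5p was 0.07 (SE 0.10). The spot-noise intervals at 95% ran from -0.47 to -0.06 for miR-140-3p and from -0.13 to 0.28 for miR-140-5p. These intervals do not cover the normalization. After it miR-5126, a neighbour in brightness, was at 0.26, the size of the miR-140-3p difference with the other sign. Neither arm reached 2-fold, against 0.193% of 518 miRNAs that were at least 2-fold lower and 0.00% that were higher. The sign for miR-140-5p depended on the scaling: it was at -0.07 when arrays were scaled to the median, at -0.02 when scaled on bright control probes and at -0.17 without normalization. miR-140-3p was below 0 under each of the 14 alternatives, but its size varied. It was at -2.82, past 2-fold, with the background column subtracted, at -0.09 with cyclic loess and at -0.022 in the rescaled deposited table.

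On the Wnt5a array the 3p arm was again the lower of the pair. Its log2 difference from GFP was -0.35 (SE 0.14), which placed it second lowest of 493 miRNAs, and that of miR-140-5p was -0.09 (SE 0.14). The SD over all 493 miRNAs was 0.13, below the size of this difference for miR-140-3p. Quantile normalization gives each spot the value of its rank, so bright spots differ by whole steps between ranks. miR-21a-5p, a neighbour in brightness, was at 0.35, the same size with the other sign. miR-140-3p remained under 2-fold, a size that 0.00% of miRNAs reached in either direction. Its place was not stable: it was 9th lowest with cyclic loess and 122nd lowest of 506 in the authors' deposited table. With the background column subtracted, both arms were above GFP, miR-140-3p by 0.48 and miR-140-5p by 1.08, the latter past 2-fold. Scaled on bright control probes, miR-140-3p was at -0.20. The comparisons of Wnt4 and Wnt5a share the GFP array, so the 3p values of the pair are not independent.

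**Figure D2:**
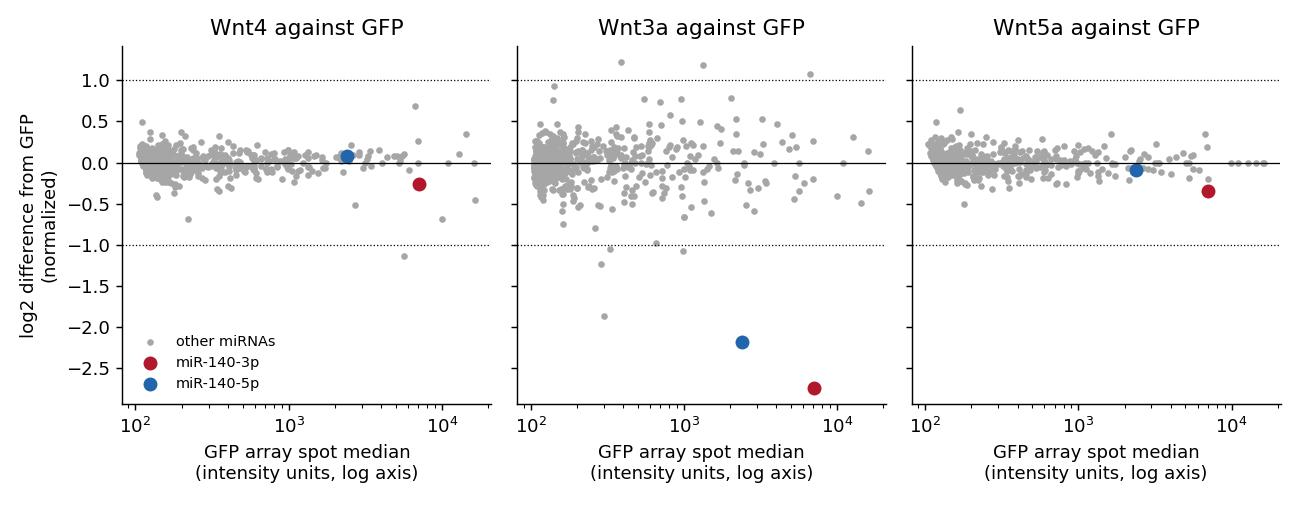
Normalized log2 difference from GFP (vertical axis) against the raw GFP spot median (log axis) for every miRNA detected on both arrays, in 1 panel per Wnt, with dotted lines at 2-fold. The arms of miR-140 lie far below all other bright miRNAs with Wnt3a, at -2.74 and -2.18, and inside or at the edge of the cloud with Wnt4 and Wnt5a.

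The comparisons among the Wnt arrays leave GFP out, though each uses the same single Wnt3a array. Compared with Wnt4, miR-140-3p on the Wnt3a array was 5.57-fold lower, at -2.48 (SE 0.13). The 5p arm was 4.78-fold lower, at -2.26 (SE 0.13). At least 2-fold lower miRNAs made up 1.28% of 546 in that comparison. Relative to Wnt5a, the 3p arm was 5.25-fold lower, at -2.39 (SE 0.17). The 5p arm was 4.26-fold lower, at -2.09 (SE 0.17), and 1.20% of 501 miRNAs were at least 2-fold lower. With this processing the 3p arm was lowest and the 5p arm second lowest in both comparisons. With the background column subtracted, miR-140-3p was at -0.12 against Wnt4 and ranked 157th lowest of 546. In the authors' deposited table as it stands, the difference from Wnt5a was under 2-fold for both arms, at -0.70 for miR-140-3p and -0.44 for miR-140-5p, and so was that of miR-140-5p from Wnt4, at -0.91. Between Wnt5a and Wnt4 the log2 difference was -0.08 for miR-140-3p and -0.17 for miR-140-5p (SE 0.15 for each), both under 2-fold, where 0.205% of 487 miRNAs differed that much. With the background column subtracted, that of miR-140-3p was 3.30. In the order of normalized levels, Wnt3a came last for both arms. For miR-140-3p the order from the highest was GFP, Wnt4, Wnt5a and Wnt3a, and for miR-140-5p it was Wnt4, GFP, Wnt5a and Wnt3a. The spot-noise interval at 95% included 0 between Wnt4 and Wnt5a for both arms, and between GFP and either of them for miR-140-5p.

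miRNAs as bright as miR-140 on the GFP array were much closer to their GFP level with Wnt3a. The 3 next brighter and 3 next dimmer than miR-140-3p were miR-2137, miR-1902, miR-5100, let-7a-5p, miR-5126 and miR-21a-5p, and their log2 differences ran from -0.41 to 1.08. The highest was miR-21a-5p, with 6669 units on the GFP array and 12510 units on the Wnt3a array. Around miR-140-5p the same choice gave miR-99a-5p, miR-27a-3p, miR-199a-5p, miR-762, miR-125a-5p and miR-6968-5p, between -0.51 and 0.53. Over all 33 other miRNAs that were detected on every array with a GFP spot median at or above that of miR-140-5p, the median was 0.00. The lowest of these 33 was miR-100-5p at -0.59.

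The arms come from one precursor, so their differences can be compared within a hairpin. miR-140-3p differed more than miR-140-5p on the Wnt3a array, by -0.56 on the log2 scale (SE 0.18). In the 13 alternatives without the background column this gap ran from -0.57 to -0.38, and with that column it was -1.56. The gap was compared with that of 77 other hairpins, paired by name, with both arms detected on the GFP and Wnt3a arrays. Hairpins with a shared or numbered arm name, such as miR-199a, were not paired. With the processing used here, the size of the gap had a median of 0.18 over the 77. In 5 of them it was larger than for miR-140. The largest were miR-204 at 0.98, miR-351 at 0.72 and miR-708 at 0.63. In each of these 3 the 5p arm was the lower one, unlike in miR-140. In the other 2 of the 5, named after their values were seen, the 3p arm was the lower one as in miR-140, with a gap of -0.59 for miR-193b and -0.58 for miR-328. miR-204-5p, which has the osteoblast factor Runx2 among its reported targets, was at -0.74 and miR-204-3p at 0.23. Only 1 of the 77 other hairpins had both arms at least 2-fold lower. It was miR-322, of an X-linked cluster, with miR-322-5p at -1.08 and miR-322-3p at -1.05. The same gap between the miR-140 arms was -0.34 with Wnt4 (SE 0.15) and -0.26 with Wnt5a (SE 0.20), and these 3 gaps share the GFP array. The gaps with Wnt4 and Wnt5a depended on the processing. Without normalization the 3p and 5p arms were closer, at -0.33 and -0.17 with Wnt4 and -0.30 and -0.15 with Wnt5a. With the background column they were further apart, at -2.82 and 0.27 with Wnt4 and 0.48 and 1.08 with Wnt5a.

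**Figure D3:**
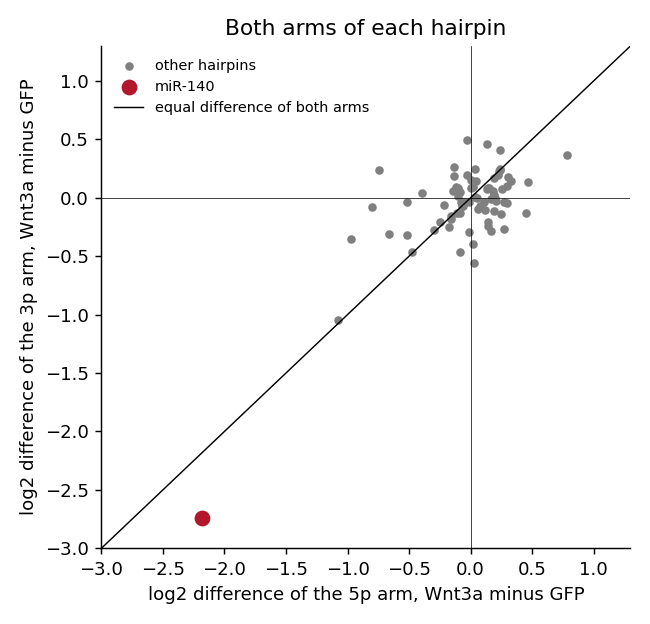
Log2 difference between Wnt3a and GFP of the 3p arm (vertical axis) against the 5p arm (horizontal axis) for the 78 hairpins paired by name and with both arms detected on both arrays. A line marks where both arms differ equally. miR-140 lies alone at -2.18 for the 5p arm and -2.74 for the 3p arm, below the line.

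By Euclidean distance between normalized log2 levels, each centred over the 4 arrays, the 5 miRNAs most like the mean of the miR-140 arms were miR-146b-5p, miR-503-5p, miR-322-5p, miR-322-3p and miR-708-5p. Their distances were 0.47, 0.98, 1.05, 1.15 and 1.18, and each arm lay at 0.20 from the mean. The median over 481 candidates was 2.07, close to the 2.05 of a miRNA that is level on all arrays. miR-146b-5p, whose family restrains inflammatory signalling through Traf6 and Irak1, gave 299 units with GFP, 232 units with Wnt4, 86.3 units with Wnt3a and 303 units with Wnt5a. It was low with Wnt3a, like miR-140, but its spot there was barely above the limit of 81.7 units. miR-503-5p gave 285 units with GFP and 130 units with Wnt3a. All 5 had a low value with Wnt3a, which is the feature that sets this measure. Besides the arms, the miRNAs at least 2-fold different from GFP with Wnt3a were 4 of these, without miR-708-5p, and the higher miR-7036a-5p, miR-711 and miR-21a-5p.

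Other miRNAs reported in chondrocytes or cartilage stood near their GFP level with Wnt3a. Of 52 probes for 25 such miRNAs, 22 were detected on both arrays, with 12 below 0, 9 above 0 and a median of -0.022. None was at least 2-fold different, against 0.980% of all 612 miRNAs at least 2-fold lower and 0.490% higher, so a count of 0 among 22 is near the background. The median over all 612 was -0.0024, and 50.2% of them were below 0, against 54.5% of the list. miR-455-3p, made from the collagen gene Col27a1 and also linked to Sox9, was at -0.32 with 157 units on the GFP array and 124 units on the Wnt3a array. miR-455-5p was not detected with GFP. The brightest of the list were miR-23b-3p at 0.25, miR-27b-3p at 0.35, miR-1247-3p at 0.14 and miR-365-3p at -0.38. The largest difference was that of miR-210-3p, a hypoxia-induced miRNA, at 0.46. The lowest was miR-221-3p at -0.43, with 718 units on the GFP array and 545 units on the Wnt3a array. Scaled on bright control probes, the list had a median of 0.067 and all miRNAs one of 0.12. With Wnt4 the median of the list was 0.036 over 20 probes and with Wnt5a -0.053 over 19 probes.

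miRNAs reported to target ligands, receptors or Smads of the TGF-beta and BMP pathways, a role shared with miR-140, were also spread around 0. Of 63 probes for 28 miRNAs, 30 were detected on both the Wnt3a and GFP arrays, with 16 below 0, 14 above 0 and a median of -0.027. Below 0 were 53.3% of the list, against 50.2% of all 612 miRNAs. At least 2-fold, 1 was higher and 0 were lower, where 0.490% of all miRNAs were higher and 0.980% lower. The higher one was miR-21a-5p at 1.08, which has Smad7 among its reported targets. The lowest was miR-204-5p at -0.74. Named after their values were seen, miR-30a-5p and miR-30d-5p were at -0.66, miR-30c-5p at -0.62 and miR-29b-3p at -0.55. miR-199a-3p, read by a probe shared with miR-199b-3p, was at 0.34, miR-26a-5p, with Smad1 among its reported targets, at -0.24, and miR-199a-5p at -0.03. Scaled on bright control probes, the list had a median of 0.078. With Wnt4 and Wnt5a the list medians were 0.042 and -0.013.

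The probes of both arms are printed side by side, in columns 7 and 8 of row 1 of block 18, so the spots around them were examined. The 8 other spots of that row had raw log2 ratios of Wnt3a over GFP between -0.49 and -0.01, against -2.63 for miR-140-3p and -2.15 for miR-140-5p. Of these spots, miR-449c-5p and miR-682 were below the detection limit on both arrays, so their ratios say little. They gave 90.9 and 92.6 units with GFP and 76.1 and 76.9 units with Wnt3a. On the other side of the pair, miR-125b-5p gave 14365 units with GFP and 11306 units with Wnt3a. In the column before the pair, miR-129-5p was dim, with 116 units on the GFP array and 82.3 units on the Wnt3a array. The 25 other miRNAs of block 18 detected on both arrays had normalized differences between -0.49 and 0.43, with a median of 0.02. A second spot of either arm was not on the array.

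**Figure D4:**
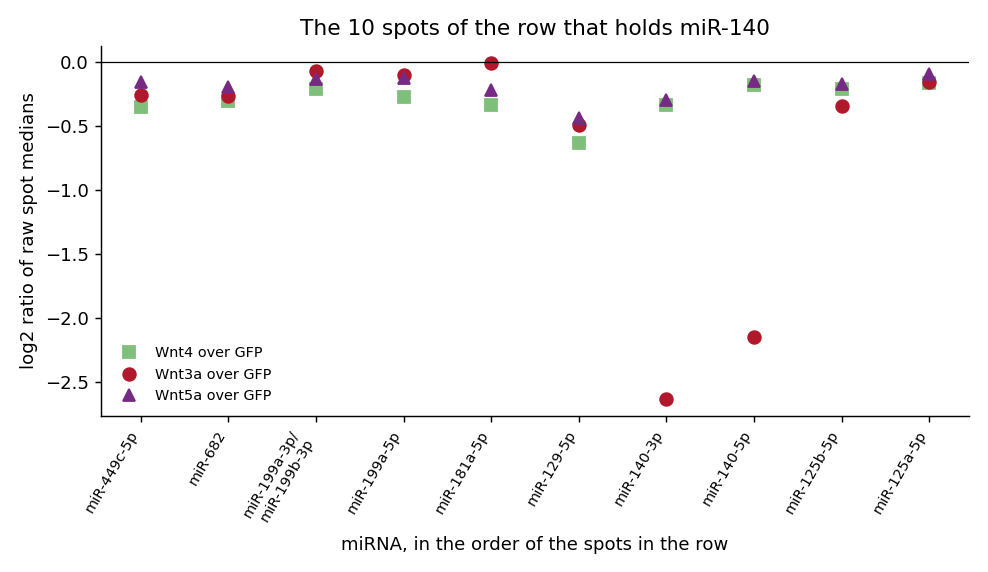
Log2 ratio of raw spot medians of each Wnt array over the GFP array (vertical axis) for the 10 neighbouring spots of the row that holds miR-140, in the order of the spots (horizontal axis). The miR-140 spots stand at -2.63 and -2.15 with Wnt3a, while the 8 other spots lie between -0.49 and -0.01. Of these, miR-449c-5p and miR-682 were not detected on the GFP and Wnt3a arrays.

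Among 29 other miRNAs encoded on chromosome 8 and detected on the GFP and Wnt3a arrays, 0 were at least 2-fold lower, against 0.980% of all 612 miRNAs, a share near which a count of 0 lies. The lowest was miR-1199-5p at -0.19, the highest miR-6769b-5p at 0.77, and the median -0.01. miR-7075-5p, of the neighbouring miRNA gene, was at -0.13, with 156 units on the GFP array and 139 units on the Wnt3a array. The host transcript Wwp2 was not measured by these miRNA arrays.

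The direction of both arms with Wnt3a against GFP was the same in all 14 alternative ways of processing, and both were at least 2-fold lower in each. The log2 difference of miR-140-3p ran from -2.94 to -1.51 and that of miR-140-5p from -2.50 to -1.11. The smallest came from the authors' deposited table, in which miR-140-3p has intensities of 2815 with GFP, 2199 with Wnt4, 987 with Wnt3a and 1605 with Wnt5a. In the same deposited table miR-140-5p has 925.9 with GFP, 807.4 with Wnt4, 429.4 with Wnt3a and 583.0 with Wnt5a. That table has a median of 25 on every array, over 638 miRNAs listed for GFP and 1112 for Wnt3a, and its factor on the spot signal is 0.405 for GFP and 0.929 for Wnt3a. The median log2 ratio over miRNAs listed on both arrays is 1.47 there, and relative to it the arms lie at -2.98 and -2.58.

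**Figure D5:**
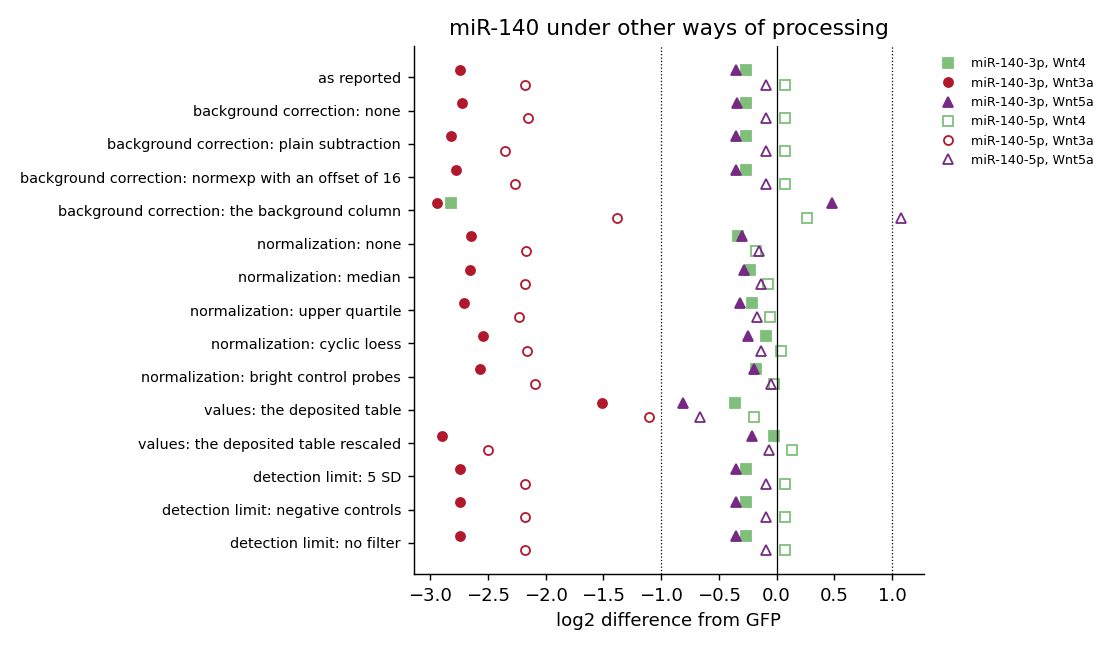
Log2 difference from GFP (horizontal axis) of miR-140-3p (filled) and miR-140-5p (open) for each Wnt under each way of processing (vertical axis), with dotted lines at 2-fold. With Wnt3a all values lie at or below -1.11, and those with Wnt4 and Wnt5a lie near 0 except where the background column was subtracted or the deposited table was used as it stands.

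Of all 1898 miRNA probes used, 617 were detected with GFP, 549 with Wnt4, 1067 with Wnt3a and 502 with Wnt5a, and 483 on all 4. The detection limit was 104 units on the GFP array and 81.7 units on the Wnt3a array. Counts of detected markers are to be read beside these totals, which were also higher with Wnt3a. All 7 mesenchymal marker miRNAs, among them miR-125b-5p and miR-21a-5p, were detected on every array, with summed spot medians of 32231 units with GFP and 35097 units with Wnt3a. The members did not move alike. miR-21a-5p had 6669 units with GFP and 12510 units with Wnt3a, and miR-125b-5p had 14365 and 11306 units. The liver marker miR-122-5p was detected on no array. Of 5 blood cell markers 2 were detected with GFP and 2 with Wnt3a, with sums of 505 and 417 units, and of 5 epithelial markers 1 and 4, with sums of 470 and 416 units. The 3 muscle markers (1 detected with GFP, 2 with Wnt3a) summed to 313 and 299 units, the 2 neural ones (1 and 2) to 208 and 175 units, the 2 endothelial ones (1 and 2) to 208 and 167 units, and the 5 pluripotency ones (1 and 1) to 676 and 627 units. A single blank spot averaged 90.8 units on the GFP array and 72.8 units on the Wnt3a array. The part of other cell types in the miR-140 differences was not tested.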

How the data were processed

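Total RNA of 4 cultures was labelled with Hy5 for LNA miRNA arrays, per the labels' protocols, and each array was read at 3 gains, per the file headers. The deposited scanner files give a raw intensity (spot median) for 3200 spots per array and a background median. The authors' table of processed values, also an intensity, matched (spot median - blank mean) x factor, with 1 factor an array, within 0.095 units. The sources used here do not say how the factor was set.

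Left out were 2 probes not marked good on the GFP array. Normexp (offset 50) was run over all spots, then quantile normalization over 1898 miRNA probes (limma 3.58.1, R 4.3.3). Differences and counts were computed in Python 3.11.15. Detection used 896 blank spots, trimmed to their middle 95%. The SE comes from 5 bright control probes with 8 spots each, and was the same for both arms whatever their brightness. It does not cover hybridisation, cultures or the normalization, and precision is limited by the number of arrays. There is no p-value. The offset shrinks differences of dim probes. Counting was tested on simulated data.

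Members, lists and alternatives were chosen with earlier results of these data known. Named by rule were the arms, the 5 nearest in pattern, those 2-fold different with Wnt3a, the 3 next brighter and dimmer, those alike in seed or sequence, 4 bright members and the largest difference of each list, and the 3 hairpins with the largest gap. miR-455, miR-221-3p, miR-7075-5p, lower members of the TGF-beta and BMP list, spots of the row and the extremes of bright miRNAs and chromosome 8 were named besides.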

Additional observations from a re-analysis of the deposited data

How the results depend on the processing

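No paired analysis was possible because there was 1 array per group, and no array could be left out. In 14 alternatives, the calls of both arms with Wnt3a against GFP were kept. Normexp with the background column, which tracks the spot signal, put several values elsewhere. miR-140-3p was at -0.12 for Wnt3a against Wnt4, -3.42 for Wnt3a against Wnt5a, -2.82 for Wnt4 against GFP, 0.48 for Wnt5a against GFP and 3.30 for Wnt5a against Wnt4. miR-140-5p was at -1.38, -1.65 and -2.46 for Wnt3a against GFP, Wnt4 and Wnt5a, and at 1.08 and 0.81 for Wnt5a against GFP and Wnt4. The gap between the arms with Wnt3a was -1.56. In the deposited table as it stands, miR-140-3p was at -1.51, -1.16 and -0.70 for Wnt3a against GFP, Wnt4 and Wnt5a, and at -0.81 and -0.45 for Wnt5a against GFP and Wnt4. miR-140-5p was at -1.11, -0.91 and -0.44 in the first 3 of these, and at -0.67 and -0.47 in the last ones. For Wnt4 against GFP it was at -0.20 there and at -0.17 without normalization. Once the table was rescaled on the miRNAs it lists for every array, miR-140-3p was at -2.88 for Wnt3a against Wnt4 and -0.022 for Wnt4 against GFP, and miR-140-5p at -2.50, -2.64 and -2.43 for Wnt3a against GFP, Wnt4 and Wnt5a. The counts of miRNAs at least 2-fold lower and higher with Wnt3a, 6 and 3, were 51 and 14 under plain subtraction, 14 and 15 with the background column, 3 and 528 in the deposited table and 18 and 18 in it rescaled. The median of the cartilage list with Wnt3a was -0.12 under plain subtraction, 0.086 with the background column, 0.067 with bright control probes and 1.34 in the deposited table. That of the TGF-beta and BMP list was 0.050 with the limit from negative controls, 0.078 with bright control probes, 1.44 in the deposited table and 0.050 in it rescaled. The median of all miRNAs was 1.47 in the deposited table for Wnt3a. Under plain subtraction miR-140-3p was the 9th and miR-140-5p the 14th lowest of 612. With the background column they were the 2nd and 10th lowest. The causes of these changes were not tested.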

Other observations

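The background medians at the miR-140 spots followed the spots themselves. At miR-140-3p they were 5310 units with GFP, 5615 units with Wnt4, 1173 units with Wnt3a and 3786 units with Wnt5a. On the Wnt4 and Wnt3a arrays these exceed the spot medians of 5582 and 1135 units, so that spot minus background is below 0 there. At miR-140-5p the background medians were 1937, 1963, 522 and 1319 units in the same order of arrays. The background column by itself was thus also lowest on the Wnt3a array for both arms. Over all detected miRNAs the background was a median of 0.69 of the spot median with GFP, 0.95 with Wnt4, 0.69 with Wnt3a and 0.71 with Wnt5a.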
